A study of Homo sapiens with 18 samples.

Results

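The genes described here encode the subunits, activators and close partners of the proteasome. They were taken from the gene names on the array as every name made of PSM, a letter from A to F and a number, which gave 44 genes of 36204 names, measured by 66 of 50599 probes. The cells were HT29, a human colorectal cancer line, and HTOXAR3, a subline made oxaliplatin (OXA) resistant by prolonged growth in rising doses of the drug, so the resistant arm is a single derived line. Each line was left untreated or exposed for 24 h to OXA or to OXA with 10 µM Curcumin, the polyphenol of turmeric, and each of the 6 groups held 3 biological replicates. The OXA dose was 10 µM for HT29 and 30 µM for HTOXAR3, chosen by the study as the half-inhibitory dose of each line, so a difference between the lines after treatment is also a difference in dose. Curcumin alone was not analysed here. The untreated groups, which the study describes as vehicle-treated in its results and as untreated in its methods, are called basal.

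The 26S proteasome degrades proteins tagged with ubiquitin. Its barrel, the 20S core, is built of rings of alpha (PSMA) and beta (PSMB) subunits and holds the proteolytic sites of PSMB5, PSMB6 and PSMB7, while the 19S cap, with a base of ATPases (PSMC) and a lid (PSMD), binds ubiquitin chains, removes them and unfolds the substrate. In cells exposed to interferon, PSMB8, PSMB9 and PSMB10 take the place of those catalytic subunits and PSME1 and PSME2 form an alternative cap, an arrangement known as the immunoproteasome that favours peptides for antigen presentation. The proteasome can degrade the NF-κB inhibitor IκBα, a step not measured here, and cells whose proteasomes are inhibited are known to transcribe the subunit genes together.

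By role, 31 of the 44 genes were constitutive subunits, 5 belonged to the immunoproteasome and 8 were chaperones, other activators, an inhibitor or tissue-restricted subunits. All 31 constitutive and all 5 immunoproteasome genes were well above background on all 18 arrays. PSMA8, a subunit of the testis, was so on 1 array and PSMB11, a subunit of the thymus, on 9, so both are given by their detection only. Values are log2 normalised intensities, read from the probe with the highest mean for each gene. They compare groups for a gene and not genes with each other. A gene was called when its Benjamini-Yekutieli (BY) adjusted p from limma, taken over all 36204 names, was under 0.05 and its change exceeded 1.2-fold. Errors are standard errors (SE) of a difference between groups of 3 arrays. In these bulk samples, fewer cells that express a gene and less RNA per cell cannot be told apart.

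Across the arrays, 52.4% to 63.6% of 58717 spots were well above background, and arrays of the same group correlated at 0.984 or more over all names. Precision is limited by having 3 arrays a group. Of 8 colon epithelial markers, 7 were well above background on every array and CDX2 was so on 10. Of 10 markers of immune, endothelial and stromal cells, 5 were well above background on all arrays, while COL1A2 was so on none and DCN on 1. Their summed log2 level was 8.96 to 9.08 in basal HT29, 9.30 to 9.34 after OXA and 9.40 to 9.51 after OXA plus Curcumin, and in HTOXAR3 it was 9.10 to 9.18, 9.43 to 9.50 and 9.56 to 9.61. The part of this list in the results that follow was not tested.

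The first question was what Curcumin changed when it was added to OXA. Constitutive subunit genes rose in both lines, in the core as well as in the cap, and none of them was called lower. In HT29, 18 of 31 were called higher, and the median change of the 31 was 0.36 on the log2 scale against -0.02 over all names. In HTOXAR3, 27 of 31 were called higher, with a median of 0.45 against -0.02. Over all names, 5.53% were called in HT29 (3.14% higher and 2.39% lower) and 8.83% in HTOXAR3 (4.43% higher and 4.41% lower). Among names well above background on every array compared, which every constitutive and immunoproteasome gene was, 9.83% were called in HT29 (5.48% higher) and 16% in HTOXAR3 (7.94% higher).

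**Figure D1:**
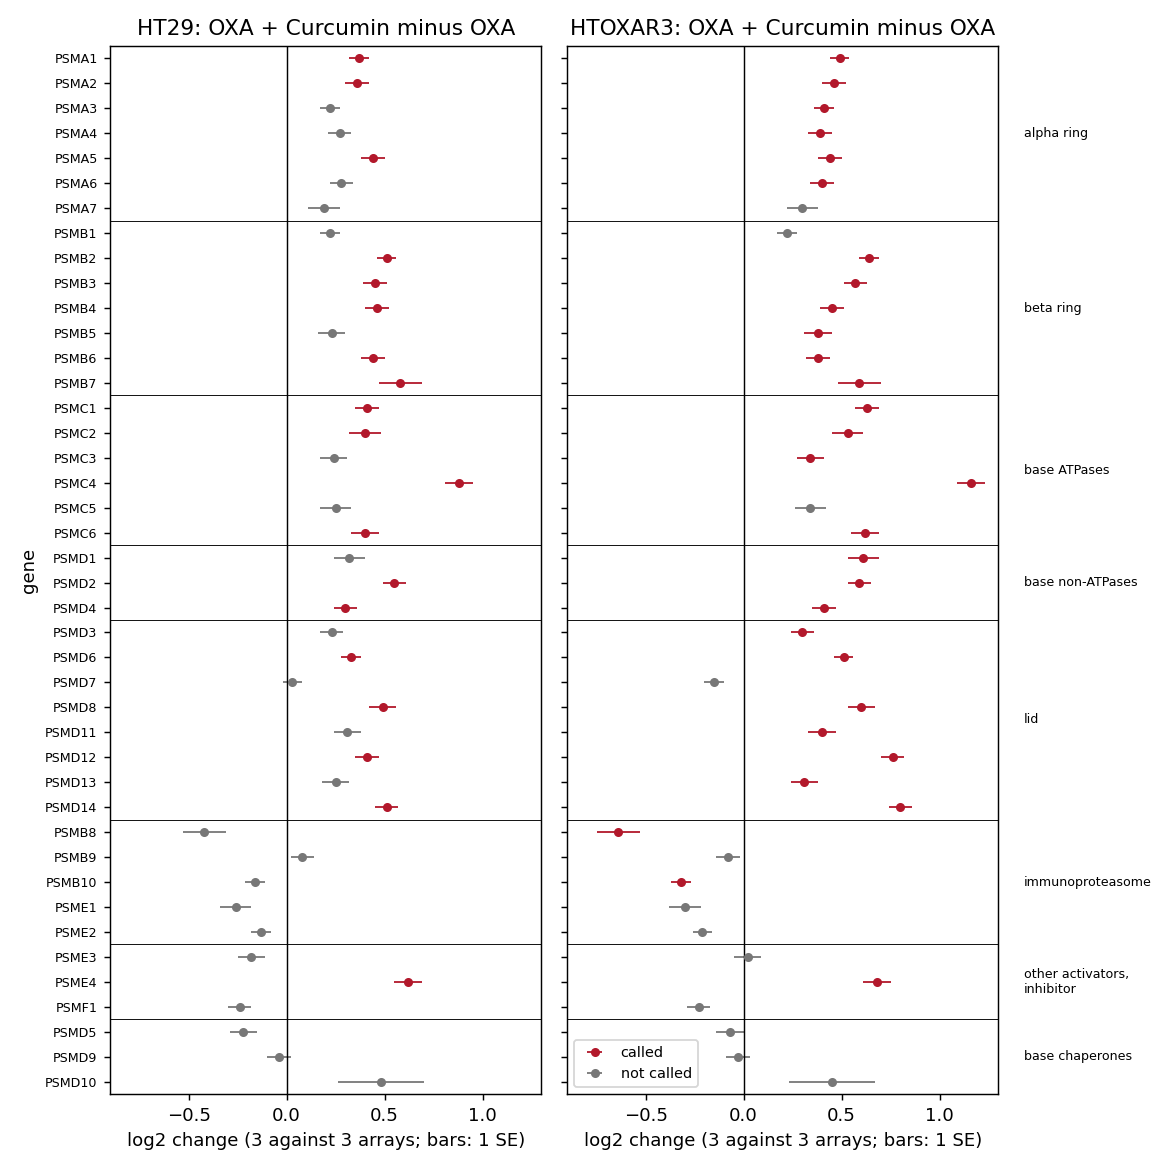
Log2 change on adding Curcumin to OXA (horizontal axis) for each proteasome gene in HT29 and in HTOXAR3, with bars for the standard error over 3 against 3 arrays and red points for called genes. Nearly all constitutive subunits lie to the right of 0 in both lines, PSMC4 farthest with 0.88 and 1.16, while PSMD7 and PSMB9 lie near 0 and the other immunoproteasome genes to the left.

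The rise was visible on every array. Relative to the mean of basal HT29, the median of the 31 genes was 0.40, 0.49 and 0.54 on the 3 HT29 arrays with OXA plus Curcumin and 0.57, 0.58 and 0.65 on those of HTOXAR3. With OXA alone it lay between 0.10 and 0.15 in HT29 and between 0.11 and 0.19 in HTOXAR3, so the groups did not overlap. The median over all names lay between -0.05 and 0.01 on all 18 arrays. Quantile normalisation gives every array the same distribution, so a value near 0 was largely fixed in advance. Scaled to the 75th percentile of each array, the all-name change on adding Curcumin in HTOXAR3 was 0.09 (processed signal) and -0.14 (normexp values). The constitutive median there was 0.44 and 0.45. In HT29 the all-name change was 0.01 and -0.05, and the constitutive median 0.30 and 0.31. Taken gene by gene, all 3 arrays with Curcumin exceeded all 3 with OXA alone for 28 of 31 genes in HT29 and for 30 of 31 in HTOXAR3 (90.3% and 96.8%), against 12.6% and 14.7% of all names.

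**Figure D2:**
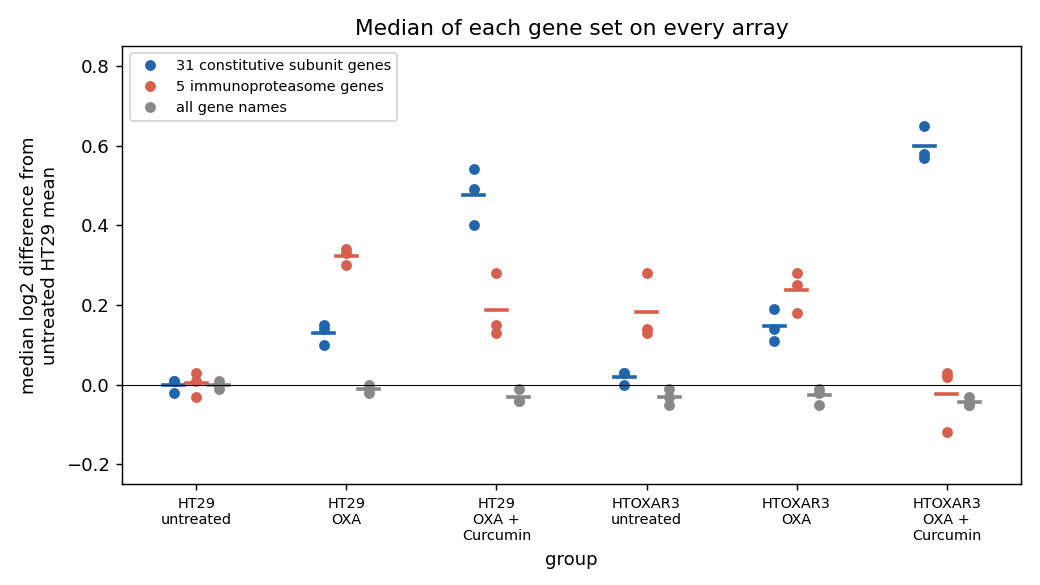
Median log2 value relative to the mean of basal HT29 (vertical axis) on each of the 18 arrays, for the 31 constitutive genes, the 5 immunoproteasome genes and all names. The constitutive median is highest on the 6 arrays with OXA plus Curcumin (0.40 to 0.65), whereas the immunoproteasome median is highest in HT29 treated with OXA (0.30 to 0.34).

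PSMC4, an ATPase of the base, showed the largest change. Its probe covers chr19:40485988-40486047 on the plus strand (GRCh37). It read 13.16, 13.16 and 13.15 in HT29 with OXA and 14.18, 13.98 and 13.94 once Curcumin was added, and in HTOXAR3 13.19, 13.34 and 13.29 against 14.35, 14.38 and 14.56. The arrays with Curcumin were the highest of each line and did not overlap with the others. The difference was 0.88 in HT29 (SE 0.07, limma BY adjusted p = 3.71e-05) and 1.16 in HTOXAR3 (SE 0.07, adjusted p = 1.89e-06). Of the other base ATPases, PSMC1 rose by 0.41 and 0.63 and PSMC6 by 0.40 and 0.62. PSMC2 rose by 0.40 and 0.53, but its second probe gave -0.11 and 0.18. In all, 4 of 6 base ATPases were called in HT29 and 5 of 6 in HTOXAR3, with medians of 0.40 and 0.58. PSMC5 was called in neither line, at 0.25 and 0.34.

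PSMD14 is the lid enzyme that cuts ubiquitin chains from the substrate, and its probe lies at chr2:162267829-162267888 (plus strand, GRCh37). It read 14.13, 14.23 and 14.28 with OXA in HT29 and 14.79, 14.77 and 14.62 with Curcumin added. In HTOXAR3 the values were 14.13, 14.06 and 14.03 and then 14.87, 14.80 and 14.94. Again the groups were apart, and PSMD14 rose by 0.51 in HT29 (SE 0.06, limma BY adjusted p = 0.00104) and by 0.80 in HTOXAR3 (SE 0.06, adjusted p = 1.54e-05). A second PSMD14 probe gave 0.48 and 0.72. PSMD12, a structural subunit of the lid, rose by 0.41 (adjusted p = 0.00762) and 0.76 (adjusted p = 3.01e-05), and PSMD8, which completes lid assembly, by 0.49 and 0.60.

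PSMD7 was the exception in the lid. It is the inactive partner with which PSMD14 forms a pair, and its value comes from 10 spots of 1 probe at chr16:74340102-74340161 (plus strand, GRCh37). It read 14.59, 14.54 and 14.61 in basal HT29, 14.08, 14.13 and 14.14 after OXA, and 14.13, 14.18 and 14.13 after OXA plus Curcumin. In HTOXAR3 it read 14.67, 14.69 and 14.64, then 14.41, 14.40 and 14.34, and then 14.27, 14.25 and 14.17. Basal arrays were thus the highest in both lines and did not overlap with treated ones. PSMD7 fell by 0.46 with OXA in HT29 (SE 0.05, limma BY adjusted p = 7.36e-05) and by 0.28 in HTOXAR3 (adjusted p = 0.01), and adding Curcumin moved it by 0.03 and -0.15, neither of which was called. The other 7 lid genes were all called in HTOXAR3 and 4 of them in HT29.

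**Figure D3:**
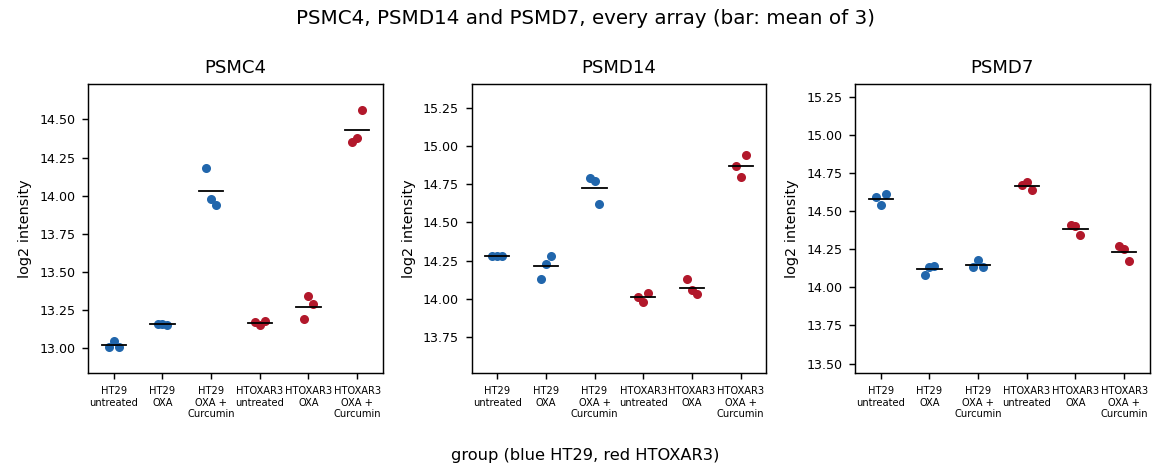
Log2 normalised intensity (vertical axis) of PSMC4, PSMD14 and PSMD7 on every array, by group of cell line and treatment. PSMC4 and PSMD14 are highest on the arrays with OXA plus Curcumin in each line, while PSMD7 is highest on the basal arrays (14.54 to 14.69).

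Of the base subunits that are not ATPases, PSMD2, a scaffold to which ubiquitin receptors dock, rose by 0.55 and 0.59, and PSMD4, itself a ubiquitin receptor, rose by 0.30 and 0.41. PSMD1, the second scaffold, was called in HTOXAR3 alone, at 0.32 and 0.61. The 19S genes together gave 10 of 17 calls in HT29 and 15 of 17 in HTOXAR3, and the 20S genes 8 and 12 of 14. Within the core, 3 and 6 of 7 alpha genes and 5 and 6 of 7 beta genes were called. PSMA1 rose by 0.37 and 0.49 and PSMA5 by 0.44 in each line, both of the alpha ring, whose medians were 0.28 and 0.41. PSMB2, with the largest change of the beta genes in HTOXAR3, rose by 0.51 and 0.64, PSMB4 by 0.46 and 0.45 and PSMB3 by 0.45 and 0.57, and the beta median was 0.45 in both lines. A PSMB2 probe of another transcript gave 0.64 and 0.59 here, but -0.57 in both lines with OXA alone and 0.07 and 0.02 with both drugs against basal cells. With its probes averaged, the PSMB2 values on adding Curcumin were 0.55 and 0.63, not called (limma BY adjusted p = 0.541 and 0.195). PSMA7, PSMB1, PSMC5 and PSMD7 were the constitutive genes called in neither line.

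PSMB6 and PSMB7 rose in both lines, and PSMB5 in HTOXAR3. PSMB7, which cuts after basic residues, read 16.19, 16.11 and 15.68 with OXA and 16.65, 16.54 and 16.53 with Curcumin added in HT29, a rise of 0.58 (SE 0.11, limma BY adjusted p = 0.0271). PSMB6, which cuts after acidic residues, rose by 0.44 in HT29 and 0.38 in HTOXAR3. PSMB5, which cuts after hydrophobic residues and is the main target of bortezomib, read 14.79, 14.71 and 14.61 and then 14.89, 15.02 and 14.91 in HT29, a difference of 0.23 that was not called (adjusted p = 0.378). In HTOXAR3 it read 14.74, 14.72 and 14.82 and then 15.14, 15.09 and 15.19, a rise of 0.38 (adjusted p = 0.0116). Several of these calls ended when 1 array was left out. The PSMB7 call in HT29 ended without any array with both drugs or without OXA replicate 2, and that of PSMB6 in HTOXAR3 without replicate 1 with both drugs or OXA replicate 1 or 3. Leaving out any HTOXAR3 array with OXA or with both drugs ended that of PSMB7 there. Leaving out replicate 1 or 3 with both drugs, or replicate 1 or 2 with OXA, ended that of PSMB5. PSMB7 was 0.49 in HT29 and 0.36 in HTOXAR3 with its probes averaged, not called (limma BY adjusted p = 0.146 and 0.615). Its second probe was well above background on 6 arrays only.

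The calls in the resistant line included those of the parental one. All 19 proteasome genes raised by adding Curcumin in HT29 were among the 28 raised in HTOXAR3. That is 100% of the first set and 67.9% of the second. The comparisons share no arrays, but both use the same spread per gene, estimated over all arrays, so their calls are not independent. The matching overlap over all names is not given here, so these shares do not set the proteasome genes apart from other names. The 9 genes raised in HTOXAR3 alone were PSMA3, PSMA4, PSMA6, PSMB5, PSMC3, PSMD1, PSMD3, PSMD11 and PSMD13. Being called in 1 line does not show a difference between the lines, and the difference itself was tested as an interaction. No proteasome gene was called there, against 0.135% of all names. At an unadjusted p under 0.05, the change of 8 proteasome genes was higher in HTOXAR3, against 4.26% of all names, and that of 1, PSMD7, was lower, against 5.48%, and none passed the Benjamini-Hochberg (BH) adjustment. The median difference of the 31 constitutive genes was 0.12, against 0.01 over all names, with 28 of 31 above 0. These genes were read on the same arrays and moved together, so they are not separate observations of a line difference.

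The immunoproteasome genes did not join this rise. None of the 5 was called higher on adding Curcumin, and PSMB8 and PSMB10 fell in HTOXAR3. The median of the 5 was -0.16 in HT29 and -0.30 in HTOXAR3. All 3 arrays with Curcumin lay below all 3 with OXA alone for 4 of 5 genes in each line, against 13.6% and 17.2% of all names.

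PSMB8 replaces PSMB5 in the immunoproteasome, and its probe spans chr6:32810023-32810490 on the minus strand (GRCh37). It read 8.55, 8.68 and 8.72 in basal HT29, 9.34, 9.43 and 9.42 after OXA and 8.78, 8.92 and 9.23 after OXA plus Curcumin. In HTOXAR3 it read 9.16, 8.91 and 9.08, then 9.35, 9.37 and 9.22, and then 8.68, 8.81 and 8.53. Within each line the OXA arrays were the highest and did not overlap with the other arrays of that line. PSMB8 rose by 0.74 with OXA in HT29 (limma BY adjusted p = 0.00155), and its change of 0.26 in HTOXAR3 was not called. Adding Curcumin lowered it by 0.64 in HTOXAR3 (adjusted p = 0.0113), and in HT29 the difference of -0.42 was not called (adjusted p = 0.253). The fall in HTOXAR3 was no longer called without replicate 1 or 3 with both drugs or replicate 1 or 2 with OXA.

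PSMB9, which replaces PSMB6, behaved otherwise. Its probe lies at chr6:32823918-32823977 (plus strand, GRCh37). It read 8.40, 8.28 and 8.29 in basal HT29, 8.92, 8.89 and 8.87 with OXA and 8.91, 9.03 and 8.98 with both drugs. In HTOXAR3 it read 8.86, 8.82 and 8.93, then 9.14, 9.25 and 9.06, and then 9.04, 9.11 and 9.06. Basal HT29 stood below every other group. PSMB9 was higher in basal HTOXAR3 than in basal HT29 by 0.55 (SE 0.06, limma BY adjusted p = 0.000139). It rose by 0.57 with OXA in HT29 (adjusted p = 7.56e-05), while its 0.28 with OXA in HTOXAR3 was not called (adjusted p = 0.0522). That change was called with a normexp offset of 16 (0.27, adjusted p = 0.0373) and with dim names left out (0.28, adjusted p = 0.0122). Adding Curcumin moved PSMB9 by 0.08 and -0.08.

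PSMB10, which replaces PSMB7, read 15.13, 15.23 and 15.13 with OXA in HTOXAR3 and 14.89, 14.84 and 14.80 with Curcumin added. Those last arrays were its lowest. It fell by 0.32 (limma BY adjusted p = 0.00906), a call that ended without replicate 3 with both drugs or replicate 2 with OXA, and its -0.16 in HT29 was not called. PSME2, a subunit of the alternative cap, rose by 0.32 with OXA in HT29 (adjusted p = 0.00297), but by 0.10 and 0.09, not called (adjusted p = 1 in both), under 2 scalings to the 75th percentile. It changed by -0.13 and -0.21 on adding Curcumin, not called. PSME1, its partner, changed by -0.26 and -0.30, not called either, and was lower by 0.38 with both drugs than in basal HTOXAR3 (adjusted p = 0.03). That fall was no longer called with slide as a block (adjusted p = 0.054), under the same scalings (0.0922 and 0.0825), without any 1 basal HTOXAR3 array, or without replicate 2 or 3 with both drugs.

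**Figure D4:**
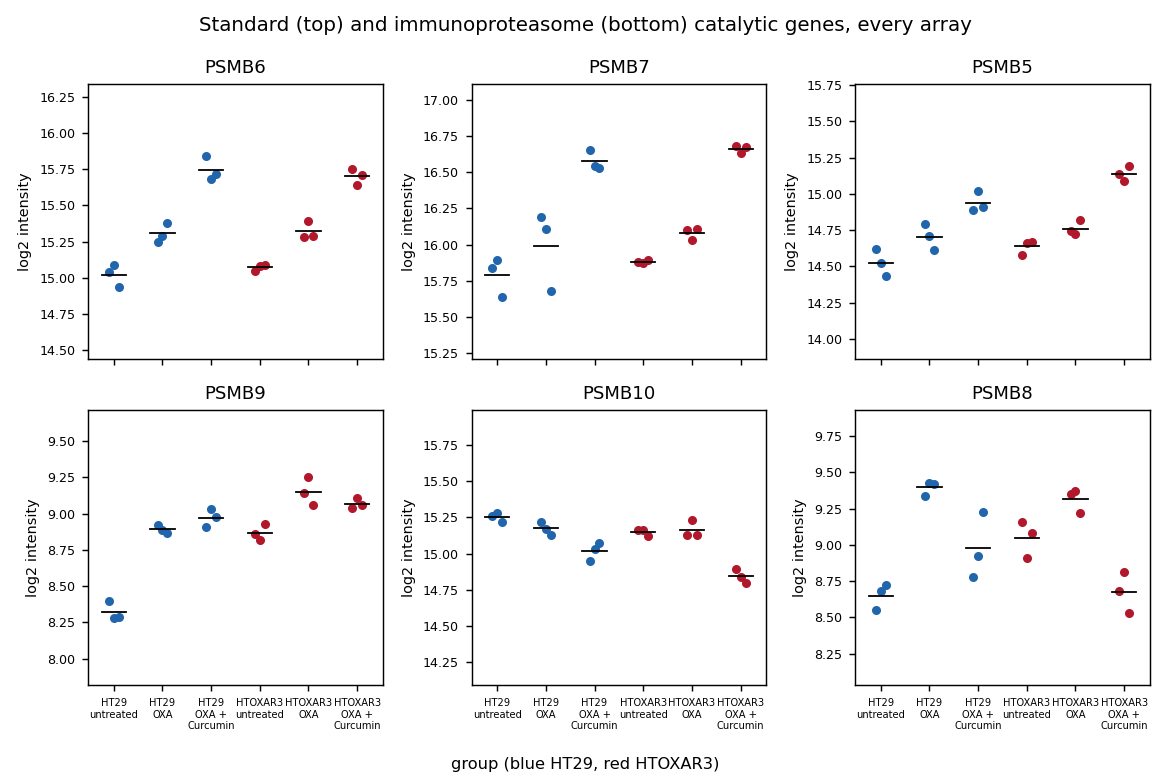
Log2 normalised intensity (vertical axis, own scale per panel) of the standard catalytic genes PSMB6, PSMB7 and PSMB5 (top) and of the immunoproteasome genes PSMB9, PSMB10 and PSMB8 that replace them (bottom), on every array by group. The top row is highest with OXA plus Curcumin in both lines, and PSMB8 is highest with OXA alone.

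Set against its standard counterpart on the same array, each replacing subunit was relatively lower once Curcumin was added. The log2 ratio of PSMB8 to PSMB5 changed by -0.65 in HT29 and -1.02 in HTOXAR3, that of PSMB10 to PSMB7 by -0.74 and -0.90, and that of PSMB9 to PSMB6 by -0.36 and -0.46. With OXA alone in HT29, the ratio of PSMB8 to PSMB5 changed by 0.56 and that of PSMB9 to PSMB6 by 0.29. The ratio of PSMB10 to PSMB7 changed by -0.28 there, with groups that overlapped (exact p = 0.3), and with OXA in HTOXAR3 the ratios of PSMB8, PSMB9 and PSMB10 changed by 0.13, 0.03 and -0.18. With 3 against 3 arrays, the exact two-sided permutation test cannot go below p = 0.1, a value that all 6 changes on adding Curcumin and those of 0.56, 0.29 and -0.18 with OXA reached (0.14 after BH adjustment over 21 tests). With both drugs against basal cells, the ratios of PSMB8 and PSMB9 changed by -0.09 and -0.07 in HT29, with overlapping groups (exact p = 0.8 and 0.6), and by -0.89 and -0.43 in HTOXAR3, and that of PSMB10 by -1.01 and -1.09. These ratios show unequal change and do not compare amounts of the subunits.

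The promoters of these genes were searched for short motifs. RefSeq promoter windows, running from 250 bases before to 50 after the start of each gene (GRCh38.p14), were at hand for 39 of 44 genes, 26 of them constitutive. The core of the interferon-stimulated response element, GAAA and a second GAAA set apart by 2 bases of any kind, was in 4 of 5 immunoproteasome windows, in 2 of 26 constitutive ones and in 4.38% of 27305 genes, on either strand. The constitutive windows were those of PSMA4 and PSMB4. The 4 immunoproteasome stretches are shown so that their matches can be compared, each read on its gene's strand with the match in capitals.
PSMB8, chr6:32844032-32844061, minus strand: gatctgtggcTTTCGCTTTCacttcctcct
PSMB10, chr16:67936852-67936881, minus strand: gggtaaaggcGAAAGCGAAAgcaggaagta
PSME1, chr14:24136189-24136218, plus strand: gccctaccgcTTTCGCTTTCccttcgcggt
PSME2, chr14:24146619-24146648, minus strand: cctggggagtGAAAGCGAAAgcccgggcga
In all 4 the matched letters are GAAAGCGAAA or its reverse complement. PSMB9 had a window without these letters, and none of the 4 matches overlapped one of another motif searched.

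TGACNNNGC, the core of the antioxidant response element that NRF1 and NRF2 bind, was in 7 of 26 constitutive windows (26.9%), in 3 of 5 immunoproteasome windows and in 16.1% of all genes. The constitutive genes were PSMA4, PSMB3, PSMC4, PSMC5, PSMD1, PSMD3 and PSMD12. A few are printed to show how the matches differ around the fixed letters, with the match in capitals, and none overlapped a match of another motif.
PSMA4, chr15:78540650-78540678, plus strand: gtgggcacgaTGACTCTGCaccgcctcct
PSMB3, chr17:38752627-38752655, plus strand: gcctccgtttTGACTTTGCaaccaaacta
PSMC5, chr17:63827654-63827682, plus strand: gaccggatctGCTGTGTCAgcgccgccct
PSMD3, chr17:39980760-39980788, plus strand: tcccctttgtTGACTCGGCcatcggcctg
PSMD12, chr17:67366724-67366752, minus strand: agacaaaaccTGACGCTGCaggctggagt
CCAAT, the box bound by NF-Y, was in 15 of 26 constitutive windows (57.7%) and in 1 of 5 immunoproteasome windows, against 39.7% of all genes. TTCNNNGAA, the core of the gamma-activated site that STAT factors bind, was in 5 of 26 and in 1 of 5, against 9.38%. The heat shock element, searched as GAA, TTC and GAA with 2 bases of any kind between neighbours, was in no window of these genes and in 0.608% of all. A match describes letters in a window, and binding was not measured.

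OXA alone changed fewer of the genes. In HT29, 8 proteasome genes were called higher and 2 lower, against 15.9% of all names called (8.33% higher and 7.62% lower) and 28.5% of those well above background (14.6% higher). Immunoproteasome genes were 3 of the 8. With each array scaled to its 75th percentile instead of quantile normalised, 3 were higher and 3 lower. The constitutive genes called higher were PSMB2 (0.36), PSMB3 (0.33), PSMD8 (0.32), PSMB6 (0.28) and PSMA6 (0.27), and those called lower were PSMD7 and PSMD1, the latter having fallen by 0.35. Under both 75th-percentile scalings PSMB3 (0.12 and 0.14), PSMD8 (0.21 and 0.20), PSMB6 (0.18 and 0.17) and PSMA6 (0.16 in each) were not called. PSMB2 was 0.05 with its probes averaged, not called (adjusted p = 1). With the replicate number as a block, PSMB6 (limma BY adjusted p = 0.0853) and PSMA6 (adjusted p = 0.0794) were no longer called. Leaving out HT29 basal replicate 1, 2 or 3, or HT29 OXA replicate 2, left 6 calls in place of 10, and the calls of PSMD1 and PSMB6 ended without any 1 of the 6 arrays. The PSMA6 call ended without any of these arrays but OXA replicate 1, that of PSMD8 without basal replicate 2 or 3 or OXA replicate 1 or 2, and that of PSMB3 without basal replicate 1 or OXA replicate 3. The constitutive median was 0.14 and the immunoproteasome median 0.32, against -0.01 over all names. Under the 75th-percentile scalings of the processed signal and of normexp values, the constitutive median was 0.06 and 0.03 and the immunoproteasome median 0.10 and 0.11.

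In HTOXAR3, OXA raised PSMB2 (0.35) and PSMB3 (0.30), both beta ring subunits, and lowered PSMD7, against 10.2% of all names called (5.31% higher and 4.94% lower) and 19.9% of those well above background (10.1% higher). Without HTOXAR3 basal replicate 1 or 2, 1 call was left in place of 3. The PSMB3 call ended without any 1 of the 6 arrays, with slide as a block (limma BY adjusted p = 0.0652) and under the 75th-percentile scalings (0.124 and 0.121), and that of PSMD7 also ended without OXA replicate 3. The PSMB2 call ended with its probes averaged (0.34, adjusted p = 1). PSMB2 read 13.86, 13.95 and 13.97 in basal HTOXAR3, 14.25, 14.34 and 14.23 with OXA and 14.90, 14.86 and 14.98 with Curcumin added. In HT29 it read 13.97, 13.97 and 14.02, then 14.33, 14.34 and 14.38, and then 14.88, 14.85 and 14.86. Each step lifted all arrays of a group above those of the group before. The OXA response differed between the lines for no proteasome gene, against 1.01% of all names, with 1 gene above and 3 below at an unadjusted p under 0.05, against 6.39% and 7.26% of all names.

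Against basal cells, both drugs together raised 27 proteasome genes and lowered 2 in HT29, and raised 28 and lowered 4 in HTOXAR3. The share called over all names was 18.6% (9.56% higher and 9.02% lower) and 17.5% (8.82% higher and 8.64% lower). Among names well above background it was 33.2% (16.6% higher) and 33.3% (16.4% higher). These comparisons share their drug-treated arrays with those of adding Curcumin, and their basal arrays with those of OXA. Constitutive genes made up 25 and 27 of the rises, with medians of 0.48 and 0.54 against -0.03 and -0.01. PSMC4 rose by 1.01 and 1.26, PSMB2 by 0.88 and 0.99, PSMD12 by 0.65 and 0.98 and PSMD14 by 0.44 and 0.86. With its probes averaged, PSMB2 stood at 0.60 in HT29, not called (limma BY adjusted p = 0.161). In HT29 the genes that fell were PSMD7 (by 0.43) and PSMF1 (by 0.45), and in HTOXAR3 PSMD7 (by 0.44), PSMF1 (by 0.37), PSME1 (by 0.38) and PSMB10 (by 0.30). In HT29 PSMB10 stood at -0.23, under the 1.2-fold minimum, but fell by 0.39 under both 75th-percentile scalings (limma BY adjusted p = 0.00103 and 0.00118). PSMB9 rose by 0.65 in HT29 (limma BY adjusted p = 1.68e-05) and stood 0.20 higher in HTOXAR3, not called.

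**Figure D5:**
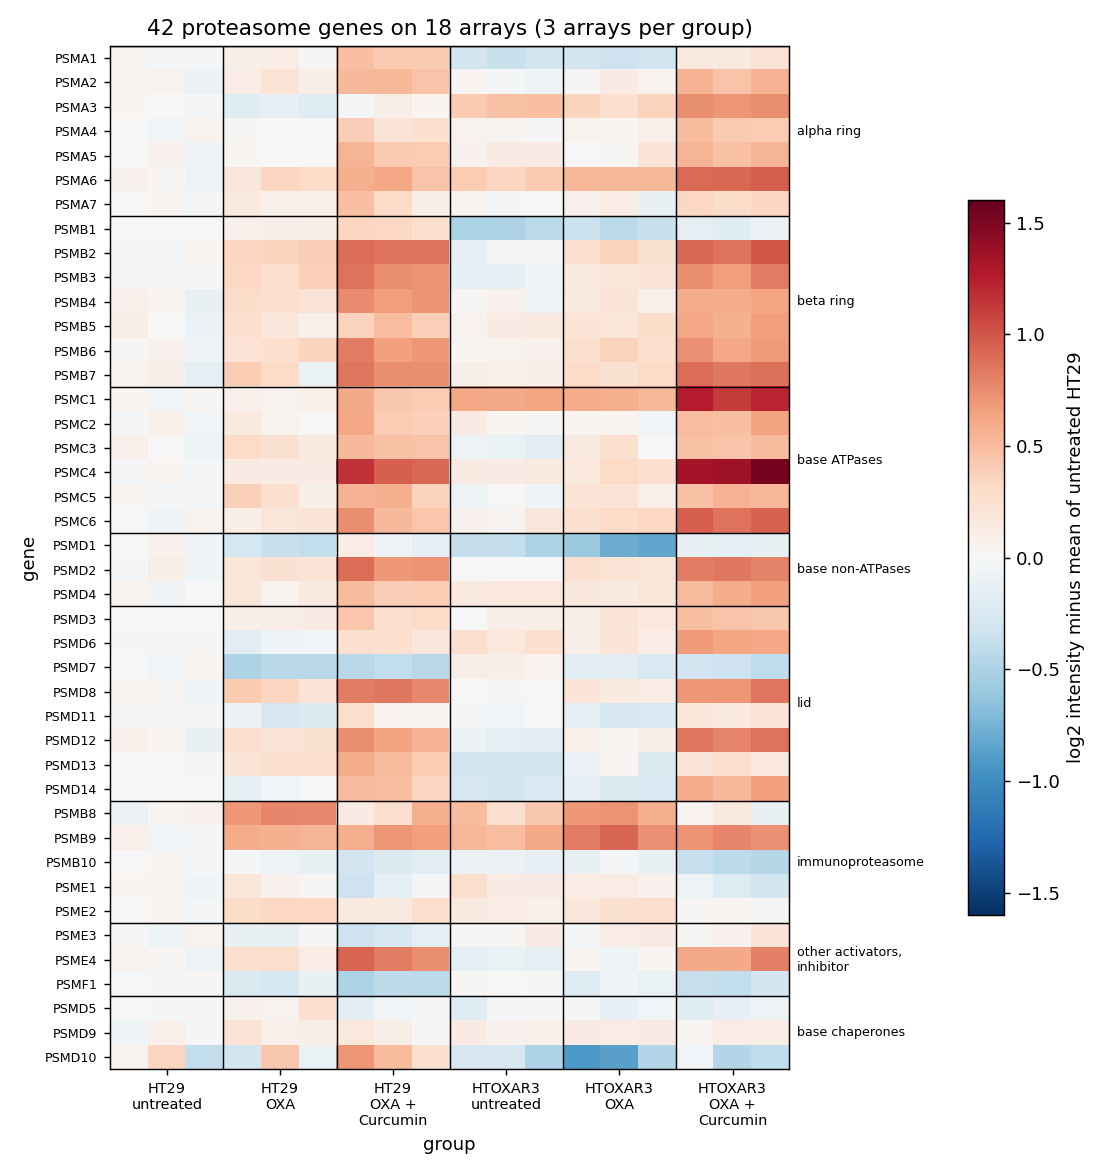
Log2 value minus the mean of basal HT29 (colour, blue for lower and red for higher) of the 42 genes well above background on all arrays, in rows by role, on each of the 18 arrays in columns by group. Most constitutive rows are red on the 6 arrays with OXA plus Curcumin, while PSMD7 is blue on the treated arrays of HT29, at -0.46 with OXA.

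For the combined response the difference between the lines was called for no proteasome gene by BY, against 0.856% of all names. By BH, 1 gene passed above and 3 below, against 1.28% and 2.15% of all names. PSMD14 rose more in HTOXAR3, by 0.42 (SE 0.09, limma BH adjusted p = 0.0189, BY 0.209), while PSMB8 (-0.70, SE 0.16, BH 0.026, BY 0.288), PSMB9 (-0.46, SE 0.09, BH 0.0101, BY 0.112) and PSME2 (-0.29, SE 0.07, BH 0.0439, BY 0.487) were relatively lower in HTOXAR3.

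Before treatment the lines differed in 8 of the 44 genes, in both directions. In HTOXAR3, 4 proteasome genes were higher and 4 lower than in HT29, against 11.5% of all names called (6.26% higher and 5.28% lower) and 21.5% of those well above background (11.5% higher). The constitutive median was 0.01 against -0.03. PSMC1 read 14.73, 14.66 and 14.72 in HT29 and 15.32, 15.31 and 15.34 in HTOXAR3, a difference of 0.62, and a second probe gave 0.59. PSMA3 was higher by 0.45 and PSMA6 by 0.38, both alpha ring subunits, and PSMB9 was the fourth. PSMB1 was lower, with 16.76, 16.77 and 16.78 against 16.26, 16.28 and 16.34, a difference of -0.48 (limma BY adjusted p = 6.01e-05). PSMD1 (-0.42), PSMA1 (-0.33) and PSMD13 (-0.31, adjusted p = 0.0474) were the others, and leaving out any array of the basal groups ended the call of PSMD13. That of PSMD1 ended without HT29 basal replicate 1 or 2 or HTOXAR3 basal replicate 3. For PSMC1 and PSMB1 the groups did not overlap.

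Of the 8 remaining genes, PSME4 encodes a large activator that caps the core without ATP. It read 11.28, 11.30 and 11.14 with OXA in HT29 and 11.95, 11.85 and 11.76 with Curcumin added, and in HTOXAR3 11.06, 10.94 and 11.05 and then 11.63, 11.63 and 11.83. It rose by 0.62 and 0.68, without overlap. Its second probe, well above background on all arrays, gave 0.15 and 0.23 and stood at -0.20 and -0.08 for the combination against basal cells, so the probes of PSME4 disagree. PSMF1, an inhibitor of the core, fell with the combination as given above, but 2 of its 4 probes lay between -0.05 and 0.12. PSME3, the nuclear activator, and the base chaperones PSMD5, PSMD9 and PSMD10 were called in none of these comparisons. A second PSMD9 probe, well above background on all arrays, gave -0.40 and -0.34 on adding Curcumin (SE 0.17). For the combination against basal cells it gave -0.80 and -0.44, where the PSMD9 probe used gave 0.09 and 0. The value of PSMD10 on adding Curcumin was 0.48 and 0.45 with an SE of 0.22, while its other probes were near 0.

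Over the 6 group means, 21 of 31 constitutive genes were highest in HTOXAR3 with OXA plus Curcumin and 8 in HT29 with OXA plus Curcumin. PSMD1 was highest in basal HT29 and PSMD7 in basal HTOXAR3. Their Pearson correlation with the median profile of the other constitutive genes was above 0.8 for 21 of 31, with a median of 0.95, and ran down to -0.73 for PSMD7. Among immunoproteasome genes it ran from -0.91 (PSMB10) to 0.50 (PSMB9). PSMF1 lay at -0.95 and PSME4 at 0.97. These correlations rest on 6 points that share their arrays and are given as a description.

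Genes around the proteasome were taken from lists of its known partners, and their counts stand beside the shares of all names called that are given above, 5.53% and 8.83% on adding Curcumin. Of 9 proteins that bind the 26S particle, 3 rose on adding Curcumin in each line and 1 fell in HT29. ZFAND2A, a stress-induced cap protein, stood at 9.33 (SD 0.0832) with OXA and 12.04 (SD 0.27) with both drugs in HT29, a rise of 2.71, and rose by 2.97 in HTOXAR3, from 9.47 (SD 0.0626) to 12.44 (SD 0.198). SEM1, a small lid subunit outside the PSM naming, rose by 0.40 in both lines and TXNL1, a thioredoxin of the cap, by 0.33 and 0.54. UCHL5, a deubiquitinase of the cap, fell by 0.29 in HT29. None of 6 assembly factors of the core and base was called in either line.

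Of 11 ubiquitin genes and shuttle factors, SQSTM1, the autophagy receptor for ubiquitin, rose by 0.89 and 1.17 on adding Curcumin, where no other gene of the list rose and 1 fell in HTOXAR3. With OXA alone, 4 of the 11 rose and 1 fell in HT29, and 3 rose and 1 fell in HTOXAR3. Of 5 genes of the p97 unfolding machinery, VCP, which encodes p97, rose by 0.62 and 0.57, and UFD1, its cofactor, rose by 0.42 and 0.71. Of 9 regulators of subunit genes, 8 were well above background on all arrays. NFE2L2 (NRF2) was so on no array, so its change could not be read. None of the 8, among them NFE2L1, was called higher on adding Curcumin. NFYB fell by 0.35 in HT29 and NFYA by 0.37 in HTOXAR3. Of 8 genes of interferon signalling and peptide loading, 5 rose and 1 fell with OXA in HT29, where 8.33% of all names were called higher and 7.62% lower, with TAP1, the peptide transporter beside PSMB8 and PSMB9 in the genome, rising by 1.36 and IRF1 by 0.77. In HTOXAR3, 3 rose, TAP1 by 0.69, against 5.31% of all names. On adding Curcumin, TAP2 fell by 0.40 in HT29 and TAPBP by 0.36 in HTOXAR3, and no other gene of that list was called.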

How the data were processed

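Total RNA of 18 cultures was labelled and hybridised to 1-colour Agilent arrays. The authors deposited the scanner output, and the values used were the linear intensity columns (mean signal and local background). Their notes name limma. Their own log2 table, which pairs no gene names with its rows, was not used. Here normexp (offset 0) was followed by quantile normalisation in limma 3.58.1 (R 4.3.3), leaving out control and outlier spots and averaging repeat spots. A model of 6 groups gave moderated tests, adjusted by Benjamini-Yekutieli over 36204 names. Depth has no count here: the number of arrays limits precision.

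Groups came from the labels. Genes were named in a comparison if called, up to 10 a direction, with immunoproteasome and catalytic genes always named, and any others were picked after their values were seen. The members and lists were chosen with earlier results of these data known. The test was checked on simulated data, where it missed the smallest changes and most of the middle-sized ones, so a gene that was not called may still have changed. Arrays lay on 3 slides. Deviations of same-numbered arrays correlated at 0.117 to 0.242 in HT29 (OXA against basal) and 0.109 to 0.195 in HTOXAR3 (adding Curcumin), over 0.1 for every pair, and not so in the other comparisons. Some results on other genes are not reported here. Alternatives covered background, scaling, filters, probes, adjustment, blocks and left-out arrays. Promoters came from RefSeq (GRCh38.p14), probe positions from the array files (GRCh37).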

Additional observations from a re-analysis of the deposited data

Results flagged for a closer look

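For 3 genes of 44 the groups of the lines moved in opposite directions without overlap. With both drugs against basal cells, PSMB8 changed by 0.32 in HT29 and by -0.37 in HTOXAR3, a difference of -0.70 (limma BY adjusted p = 0.288, BH 0.026). PSME2 changed by 0.20 and -0.10, a difference of -0.29 (BY 0.487, BH 0.0439). With OXA alone, PSMC1 changed by 0.07 and -0.05, a difference of -0.12 (SE 0.09, BY 1, BH 0.599). Such opposite movement was found for 0.928% of all names with OXA (2.27% of the 44 genes), 0.865% on adding Curcumin (0 genes) and 1.13% with both drugs (4.55%). None of these differences passed the BY threshold. Groups of 3 arrays are too small to look for single far arrays.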

How the results depend on the processing

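Counts of called proteasome genes and medians of the 31 constitutive genes were recomputed under each alternative. With BH, the count rose from 3 to 5 for OXA in HTOXAR3 and from 0 to 4 for the line difference in the combined response. That line difference gave 2 calls with an offset of 50 and 1 with dim probes left out, which also gave 5 for OXA in HTOXAR3. With 75th-percentile scaling of the processed signal or of normexp values, OXA in HT29 gave 6 calls in place of 10. Its constitutive median moved from 0.14 to 0.06 and 0.03, that of the combination in HT29 from 0.48 to 0.34 in both, and the line differences from -0.02 to 0.05 and 0.06 for OXA and from 0.07 to 0.18 and 0.17 for the combination. The processed signal gave 0.30 in place of 0.36 for adding Curcumin in HT29. On slide 3 alone, a choice made after seeing the data, it was 0.29. Under these scalings the median of all names reached -0.19 for OXA in HTOXAR3, from 0.01, and 30 or 31 of 31 constitutive genes stayed above 0 on adding Curcumin.

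Fitting only the groups compared left 1 call of 8 for the basal difference. For OXA in HT29 and HTOXAR3 it left 1 of 10 and 0 of 3, and for adding Curcumin 0 of 19 and 1 of 30. For the combination it left 10 of 29 and 20 of 32. Fewer arrays estimate the spread in these fits, and what ended the calls was not tested. Leaving out each array in turn gave 6 to 7 calls for the basal difference, 6 to 7 and 1 to 3 for OXA, 13 to 18 and 22 to 26 for adding Curcumin, 28 to 31 and 30 to 32 for the combination and 0 for the line differences. The medians ran from 0 to 0.04 for the basal difference, 0.11 to 0.16 and 0.07 to 0.12 for OXA, 0.32 to 0.39 and 0.44 to 0.48 for adding Curcumin, 0.44 to 0.52 and 0.52 to 0.55 for the combination, and -0.04 to -0.01, 0.08 to 0.14 and 0.04 to 0.11 for the line differences. With the replicate number as a block, the counts were 8 for the basal difference, 8 and 4 for OXA, 18 and 31 for adding Curcumin, 29 and 33 for the combination and 0 for the line differences. Over the genes named by rule, 2458 values kept their status as called or not, 171 lost a call and 19 gained one. Of the values called in the main test, 0 reversed direction, and direction was not compared for the others. Called genes beyond the 10 named a direction had no such values.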

Other observations

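Slides 2 and 3 each held all 6 groups. Within them, a comparison chosen after seeing the data, adding Curcumin moved the constitutive median by 0.39 and 0.29 in HT29 and by 0.47 and 0.46 in HTOXAR3. PSMC4 changed by 0.92 and 0.79 in HT29 and by 1.16 on either slide in HTOXAR3. PSMB8 changed by -0.58 and -0.18 in HT29 and by -0.67 and -0.62 in HTOXAR3. Among the 10 markers of other cell types, 1 rose on adding Curcumin in each line, while 1 fell in HT29 and 2 in HTOXAR3, with list medians of -0.09 and -0.19. The marker that rose was CD68, a lysosomal protein of macrophages, by 1.19 and 1.40.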
